A study of Mus musculus with 6 samples.

Results

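The genes described here are the tumour necrosis factor (TNF) receptor superfamily, its ligands, and the TNF receptor-associated factors (TRAFs). They were chosen by symbol alone: every gene whose symbol begins with Tnfrsf or Tnfsf, Traf1 to Traf7, and 10 relatives with other names (Cd27, Cd40, Cd40lg, Cd70, Fas, Fasl, Lta, Ltb, Ltbr and Tnf). The rule found 47 of the 31626 rows of the tables. Traf3, a brake on the alternative NF-kB pathway, was dropped because 2 of its 6 values were failed estimates. Its other values were 10.8 and 11.8 FPKM in controls and 12.4 and 9.29 FPKM after deletion. That left 46 members, made up of 24 receptors, 16 ligands and 6 TRAFs. FPKM, the unit of every level below, is the number of sequenced fragments from a gene divided by the gene's length and by the library's size.

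RNA was sequenced from common myeloid progenitors of C57Bl/6 mice, transformed with MSCV-MN1-IRES-GFP, a retrovirus that carries the leukaemia oncogene MN1 and green fluorescent protein. The comparison asks which transcripts differ after loss of DOT1L, a histone H3 methyltransferase. Controls (3 libraries) were Dot1l flox/flox cells transduced with a control, and Dot1l-deleted samples (3 libraries) were such cells transduced with Cre and labelled Dot1l -/-. Both groups grew in M3234, a methylcellulose medium, with FBS, IL3, IL6 and SCF, and both were sorted at day 7. No group had Cre with intact Dot1l, so an effect of Cre itself cannot be told apart from one of the deletion. The labels name no separate animals or cultures, so p-values reflect only how much these 6 libraries vary, and that variation may be technical.

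TNF receptors are surface proteins with cysteine-rich repeats, and their ligands are trimers that sit on a neighbouring cell or are shed from it. Receptors with a death domain recruit adaptors such as TRADD or FADD, through which caspase-8 can be activated, while most others bind TRAFs, which switch on NF-kB and MAP kinases. Some members are decoys that bind ligand without signalling. In blood the family is best known for inflammation, cell death and the costimulation of lymphocytes.

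Dot1l itself was at 20.2, 22.6 and 19.6 FPKM in the controls and 8.24, 8.17 and 5.80 FPKM after deletion (log2 fold change -1.39, SE 0.157, limma adjusted p = 0.000124). The third Dot1l-deleted library stood apart: its 10 highest rows held 39.0% of its summed FPKM, against 6.59% to 10.8% in the other libraries. Its median-of-ratios size factor was 0.756 against 1.04 to 1.08. Counts are therefore also given with median-of-ratios scaling, which divides each library by its typical ratio to the average library ("scaled"), and without that library. Over all tested genes the median change was -0.16 on the log2 scale as deposited and 0.0011 once scaled. Progenitor markers (7 genes, among them Cd34, Kit and Flt3) summed to 1260 to 1290 FPKM in controls and 224 to 314 after deletion. Neutrophil markers (9 genes) summed to 1946 to 2227 and 24215 to 29828 FPKM, and monocyte and macrophage markers (8 genes) to 160 to 182 and 859 to 1134 FPKM. Within the monocyte list Ly6c2 and Lyz2 made up most of the sum after deletion, while Ccr2 was lower (43.5 to 49.96 and 23.0 to 30.9 FPKM). Mast cell and basophil markers (6 genes) summed to 2080 to 2320 and 1358 to 1994 FPKM. Most of it was Cpa3, whose groups overlapped (1854 to 2108 and 1257 to 1856). Ms4a2 was lower after deletion (147 to 166 and 37.6 to 46.2). So were Prss34 (1.86 to 2.71 and 0.328 to 0.956) and Fcer1a (0.154 to 0.283 and 0 to 0.0463). Mcpt8 (44.8 to 56.7 and 57.8 to 84.3) and Tpsb2 (2.51 to 3.04 and 4.44 to 6.84) were higher after deletion. Megakaryocyte markers (6 genes) summed to 115 to 123 and 64.3 to 84.9 FPKM, with Itga2b lower (82.2 to 83.4 and 16.1 to 20.5) and Pf4 higher (26.7 to 33.8 and 44.3 to 60.3). Erythroid markers (35.6 to 40.3 and 32.2 to 40.6 FPKM), dendritic cell markers (0.749 to 1.28 and 0.497 to 1.15) and stromal and endothelial markers (2.97 to 4.03 and 2.42 to 3.47) overlapped between the groups. The part of these shifts in the results below was not tested, and in bulk RNA fewer cells of a type and less RNA per cell cannot be told apart.

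Of the 46 members, 30 had a mean of at least 1 FPKM and were tested: 18 receptors, 8 ligands and 4 TRAFs. At a limma adjusted p under 0.05, 8 rose and 7 fell, while 7.43% of all 11924 tested genes rose and 12.2% fell. With scaling 17 members rose and 7 fell, against 23% and 22.3% of all genes. Without the third Dot1l-deleted library 14 rose and 7 fell, against 17.4% and 21%. Of the tested members, 5 had a mean under 1 FPKM in 1 group (Tnfsf11, Ltb, Tnfrsf8, Tnfrsf4 and Tnfrsf13c) and were tested only because the other group was higher, so these counts describe the members and do not set them apart from other genes.

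The receptors that rose were Tnfrsf23, Tnfrsf14, Tnfrsf1a, Fas, Tnfrsf8 and Tnfrsf26, and those that fell were Cd27, Tnfrsf9 and Tnfrsf12a. Among ligands Tnfsf11 and Ltb rose and Tnfsf4, Tnfsf10 and Tnfsf9 fell. Among TRAFs none rose, also at an unadjusted p under 0.05 in limma, and Traf4 fell. The median log2 fold change was 0.10 over the tested members and -0.16 over all tested genes, and the median of its absolute size was 0.59 and 0.27. In 10 tested members every Dot1l-deleted library was above all controls (10.7% of tested genes), and in 10 every one was below (34.1%).

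**Figure D1:**
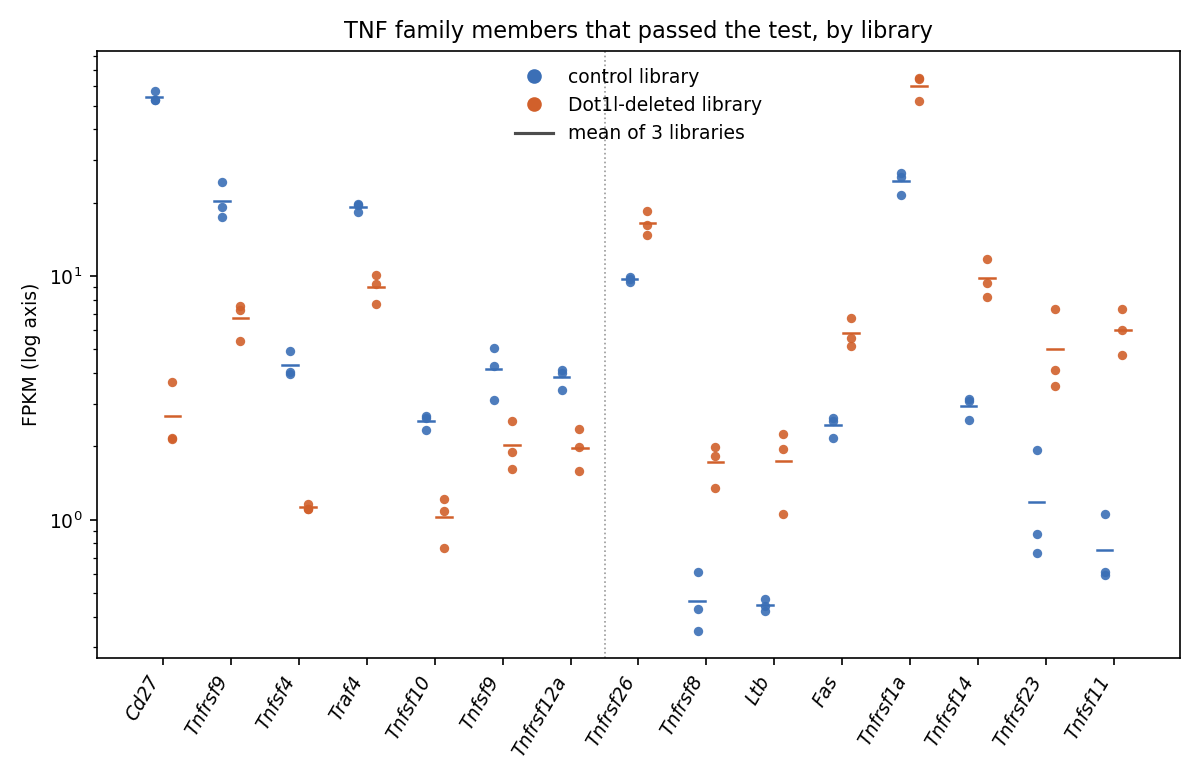
FPKM (log axis) of the 15 members that passed the test, in each control (blue) and Dot1l-deleted (orange) library, with short lines for the mean of 3 libraries. Left of the dotted line are the 7 that fell and right of it the 8 that rose; the groups overlap in none of them, and Cd27 has the widest gap.

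Cd27 changed most. Cd27 (ENSMUSG00000030336) encodes a costimulatory receptor that binds CD70 and is found on lymphocytes and on early blood progenitors. Its level was 52.9, 57.4 and 52.8 FPKM in the controls and 3.66, 2.15 and 2.17 FPKM after deletion. Every control was thus high and every Dot1l-deleted library low. The mean was 20.4-fold lower (log2 fold change -3.94, SE 0.171, limma adjusted p = 2.972e-07), and the scaled log2 value was -3.79. Cd70, the gene of its ligand, was listed at 0 in all 6 libraries. Vamp1 overlaps Cd27 on the other strand in the GENCODE M21 annotation. Vamp1 fell less, from 7.74, 8.09 and 7.78 FPKM to 5.85, 5.56 and 4.61 FPKM (log2 fold change -0.49, SE 0.135, limma adjusted p = 0.0287). The kit was stranded per the labels, but no source here says how strand entered the counting, so the reads of this pair cannot be told apart.

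Tnfrsf1a (ENSMUSG00000030341), the main TNF receptor with a death domain, rose. Its level was 26.5, 25.6 and 21.6 FPKM in the controls and 64.4, 64.8 and 52.2 FPKM after deletion. All Dot1l-deleted libraries lay well above the controls, with a 2.46-fold higher mean (log2 fold change 1.26, SE 0.161, limma adjusted p = 0.000290). In the deleted libraries its mean was the highest of any receptor.

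Cd27 and Tnfrsf1a moved in opposite directions although only 3 protein-coding genes, Tuba3a, Ltbr and Scnn1a, separate them on chromosome 6 in GENCODE M21. Their promoters are shown for that reason. The sequences are from RefSeq on build GRCm38.p6, not the mm9 build that the submitters name, and run from 250 bases before to 50 after the gene's start. Cd27 is at chr6:125236978-125237277 on the minus strand and Tnfrsf1a at chr6:125349473-125349772 on the plus strand. Capitals mark matches on either strand to GGGNNNNNCC, a loose form of the NF-kB site, or to TATAAA.
Cd27: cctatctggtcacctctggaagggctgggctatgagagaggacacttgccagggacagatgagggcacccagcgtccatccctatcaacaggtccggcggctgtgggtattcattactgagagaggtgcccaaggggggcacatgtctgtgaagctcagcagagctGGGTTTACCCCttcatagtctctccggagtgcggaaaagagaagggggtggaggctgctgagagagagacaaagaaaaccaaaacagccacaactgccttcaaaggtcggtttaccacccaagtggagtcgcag
Tnfrsf1a: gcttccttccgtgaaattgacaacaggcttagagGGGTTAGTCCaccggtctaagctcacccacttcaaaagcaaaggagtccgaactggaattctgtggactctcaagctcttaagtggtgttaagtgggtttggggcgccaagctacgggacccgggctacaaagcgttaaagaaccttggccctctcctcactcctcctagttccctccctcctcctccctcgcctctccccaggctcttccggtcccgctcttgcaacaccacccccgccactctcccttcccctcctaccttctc
The Cd27 window holds 2 overlapping matches to GGGNNNNNCC, the Tnfrsf1a window holds 1, and neither holds TATAAA. Of all 32851 promoters of this length, 50.8% hold GGGNNNNNCC and 13.6% hold TATAAA. A match describes letters in the window and shows no bound site.

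Ltbr, between the opposed pair, encodes the lymphotoxin beta receptor of the alternative NF-kB pathway. Its level was 20.3, 21.1 and 20.8 FPKM in the controls and 26.9, 28.9 and 19.1 FPKM after deletion. The third Dot1l-deleted library was below the controls and the others above them. Ltbr did not pass as deposited (log2 fold change 0.24, SE 0.170, limma adjusted p = 0.362). It passed with scaling (0.41, adjusted p = 0.000947) and without that library (0.41, adjusted p = 0.00342). Its neighbour Scnn1a, an epithelial sodium channel subunit gene, was at 0.186, 0.218 and 0.174 FPKM in the controls and 2.16, 2.49 and 1.83 FPKM after deletion. Scnn1a rose (log2 fold change 1.40, SE 0.195, limma adjusted p = 0.000518). Beyond Tnfrsf1a, Cd9, a tetraspanin gene, fell (log2 fold change -0.71, SE 0.160, limma adjusted p = 0.0100). Vamp1, Scnn1a and Cd9 were named for their position.

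**Figure D2:**
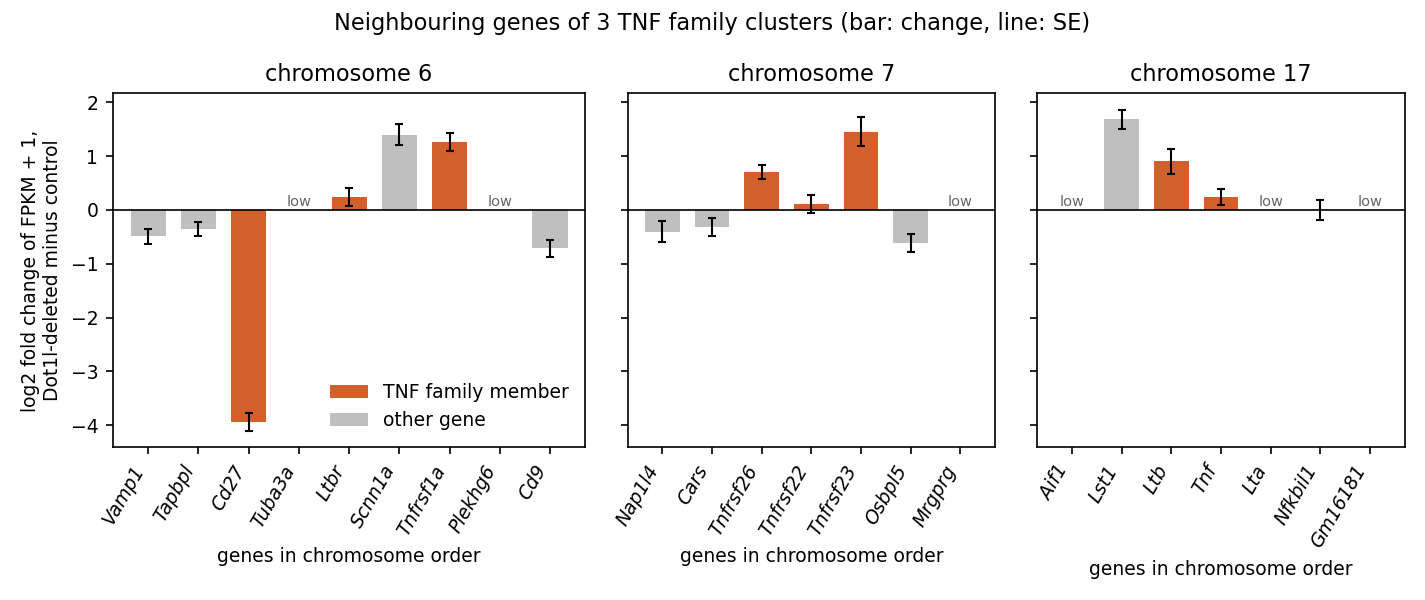
Log2 fold change of FPKM + 1, Dot1l-deleted minus control (bars, with the SE as a line), for members (orange) and other protein-coding genes (grey) in chromosome order at 3 clusters of the family; "low" marks genes under the filter of 1 FPKM. On chromosome 6 Cd27 (-3.94) and Tnfrsf1a (1.26) point in opposite directions, and on chromosome 7 Tnfrsf26 and Tnfrsf23 rose.

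Tnfrsf1b, the TNF receptor without a death domain, was at 19.8, 19.2 and 18.001 FPKM in the controls and 30.7, 29.7 and 21.4 FPKM after deletion. Every Dot1l-deleted library was above all controls, the third by the least. It did not pass as deposited (log2 fold change 0.48, SE 0.165, limma adjusted p = 0.0673). It passed with scaling (0.66, adjusted p = 5.386e-05) and without the third Dot1l-deleted library (0.64, adjusted p = 0.00115). Tnf, the founding ligand, was at 7.07, 6.45 and 6.02 FPKM in the controls and 7.87, 9.17 and 6.73 FPKM after deletion. The groups overlapped and it did not pass (log2 fold change 0.24, SE 0.146, limma adjusted p = 0.282). It passed with scaling (0.40, adjusted p = 0.00803) and without that library (0.34, adjusted p = 0.0443).

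Ltb, encoding membrane-bound lymphotoxin beta, rose from a low level. It was at 0.442, 0.475 and 0.421 FPKM in the controls and 2.26, 1.94 and 1.05 FPKM after deletion. The groups did not overlap, and the third Dot1l-deleted library was the lowest of its group. The mean was 3.93-fold higher (log2 fold change 0.90, SE 0.224, limma adjusted p = 0.0171). Lta, whose product joins lymphotoxin beta in a trimer, was below the filter. Its level of 0.243 to 0.480 FPKM in controls lay above the 0.0304 to 0.185 FPKM after deletion. Ltb, Tnf and Lta are consecutive on chromosome 17. Beside Ltb, the leukocyte gene Lst1 rose (log2 fold change 1.69, SE 0.176, limma adjusted p = 6.811e-05). Beside Lta, Nfkbil1 did not pass (log2 fold change -0.0029, SE 0.179, limma adjusted p = 0.994).

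Fas, a death receptor, rose 2.39-fold. It was at 2.61, 2.54 and 2.17 FPKM in the controls and 5.59, 6.75 and 5.17 FPKM after deletion. All Dot1l-deleted libraries were above the controls (log2 fold change 0.99, SE 0.152, limma adjusted p = 0.00103). Fasl, the gene of its ligand, reached at most 0.0224 FPKM.

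Tnfsf10, which encodes the death ligand TRAIL, fell. It was at 2.33, 2.67 and 2.63 FPKM in the controls and 1.09, 1.22 and 0.763 FPKM after deletion. The groups did not overlap, and the mean was 2.49-fold lower (log2 fold change -0.81, SE 0.177, limma adjusted p = 0.00843). Tnfrsf10b, the mouse death receptor for TRAIL, had a control mean of 3.77 FPKM (SD 0.118, n = 3) and a Dot1l-deleted mean of 4.37 FPKM (SD 0.666, n = 3). It did not pass as deposited (log2 fold change 0.16, SE 0.149, limma adjusted p = 0.469), but did with scaling (0.31, adjusted p = 0.00529) and without the third Dot1l-deleted library (0.27, adjusted p = 0.0276).

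Tnfrsf23, a decoy receptor for TRAIL, rose. It was at 1.93, 0.731 and 0.877 FPKM in the controls and 4.14, 7.32 and 3.55 FPKM after deletion. The groups did not overlap, although its SE was the largest of the tested members (log2 fold change 1.45, SE 0.268, limma adjusted p = 0.00327). Tnfrsf26, a relative beside it on chromosome 7, was at 9.90, 9.42 and 9.77 FPKM in the controls and 16.2, 18.5 and 14.8 FPKM after deletion. Its control libraries were close together and all Dot1l-deleted ones were higher, with a 1.70-fold higher mean (log2 fold change 0.70, SE 0.135, limma adjusted p = 0.00417). Tnfrsf22, another decoy that lies between them, had a control mean of 3.50 FPKM (SD 0.261, n = 3) and a Dot1l-deleted mean of 3.91 FPKM (SD 0.955, n = 3). It did not pass (log2 fold change 0.11, SE 0.169, limma adjusted p = 0.677; scaled 0.26, adjusted p = 0.133). These 3 genes are related copies and an antisense gene, E230032D23Rik, overlaps them all, so the split of reads between them is uncertain. On their flanks, Nap1l4 and Cars did not pass and Osbpl5 fell (log2 fold change -0.61, SE 0.161, limma adjusted p = 0.0220).

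Tnfrsf21, the death domain receptor DR6, was at 16.7, 17.8 and 16.4 FPKM in the controls and 22.9, 21.1 and 17.96 FPKM after deletion. Its groups did not overlap, but it did not pass as deposited (log2 fold change 0.26, SE 0.142, limma adjusted p = 0.237). It passed with scaling (0.44, adjusted p = 0.00283) and without the third Dot1l-deleted library (0.35, adjusted p = 0.0105).

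Receptors and ligands best known from the costimulation of T cells follow, described in pairs. Tnfrsf9, encoding CD137, was at 24.4, 19.3 and 17.5 FPKM in the controls and 7.56, 5.40 and 7.29 FPKM after deletion. All Dot1l-deleted libraries were below the controls, with a 3.02-fold lower mean (log2 fold change -1.46, SE 0.170, limma adjusted p = 0.000149). Camta1, which overlaps Tnfrsf9 on the other strand, was at 0.319 to 0.620 FPKM. Tnfsf9, the gene of its ligand, was at 5.08, 4.26 and 3.11 FPKM in the controls and 2.55, 1.61 and 1.90 FPKM after deletion. It was lower in every Dot1l-deleted library as well (log2 fold change -0.76, SE 0.194, limma adjusted p = 0.0190). This call was lost without control replicate 1 (adjusted p = 0.0976), control replicate 2 (0.0763), Dot1l-deleted replicate 2 (0.0709) or Dot1l-deleted replicate 3 (0.0530), with no filter (0.0686), and with scaling and without Dot1l-deleted replicate 3 together (0.0521). Gm11110, a lincRNA gene on the other strand of Tnfsf9, fell too (log2 fold change -0.87, SE 0.219, limma adjusted p = 0.0184), and the reads of the pair cannot be told apart.

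Tnfsf4, the OX40 ligand gene, fell 3.83-fold. It was at 4.05, 3.96 and 4.94 FPKM in the controls and 1.11, 1.16 and 1.11 FPKM after deletion. The Dot1l-deleted libraries were almost equal (SD 0.0279 FPKM, n = 3) and all below the controls (log2 fold change -1.32, SE 0.159, limma adjusted p = 0.000192). Tnfrsf4, encoding OX40, had a control mean of 1.22 FPKM (SD 0.158, n = 3) and a Dot1l-deleted mean of 0.986 FPKM (SD 0.381, n = 3), and did not pass (log2 fold change -0.17, SE 0.209, limma adjusted p = 0.593). Its neighbour Tnfrsf18, the GITR gene, had a control mean of 14.3 FPKM (SD 2.83, n = 3) and a Dot1l-deleted mean of 11.0 FPKM (SD 1.87, n = 3), and did not pass (log2 fold change -0.34, SE 0.175, limma adjusted p = 0.214). Tnfsf18, the GITR ligand gene beside Tnfsf4 on chromosome 1, was listed at 0 in all libraries.

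Tnfrsf14 went the other way. It encodes HVEM, a receptor for the ligand LIGHT and for the inhibitory receptor BTLA. Its level was 3.08, 3.13 and 2.58 FPKM in the controls and 11.7, 9.40 and 8.22 FPKM after deletion. All Dot1l-deleted libraries were far above the controls, with a 3.34-fold higher mean (log2 fold change 1.45, SE 0.157, limma adjusted p = 9.237e-05). Tnfsf14, which encodes LIGHT, was at 8.94, 9.42 and 8.82 FPKM in the controls and 8.76, 8.22 and 5.43 FPKM after deletion. Its groups did not overlap, by a narrow margin, and it did not pass as deposited (log2 fold change -0.27, SE 0.170, limma adjusted p = 0.301) or with scaling (-0.11, adjusted p = 0.203).

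Tnfrsf8, the CD30 gene, rose from a low level. It was at 0.430, 0.352 and 0.610 FPKM in the controls and 1.99, 1.83 and 1.35 FPKM after deletion. The groups did not overlap (log2 fold change 0.89, SE 0.201, limma adjusted p = 0.0103). It lies beside Tnfrsf1b on chromosome 4. Tnfsf8, the gene of its ligand, was below the filter at 0.0202 to 0.0955 FPKM in controls and 0.128 to 0.195 FPKM after deletion.

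Tnfsf11 had the largest rise of the tested members. Tnfsf11 (ENSMUSG00000022015) encodes RANKL, the cytokine that drives osteoclast formation. Its level was 0.611, 1.05 and 0.594 FPKM in the controls and 6.03, 7.33 and 4.74 FPKM after deletion. All Dot1l-deleted libraries were several times above the controls, with an 8.005-fold higher mean (log2 fold change 1.997, SE 0.193, limma adjusted p = 4.014e-05). Tnfrsf11a, the gene of its receptor RANK, reached at most 0.0746 FPKM, and Tnfrsf11b, encoding the soluble decoy osteoprotegerin, at most 0.0161 FPKM. The Tnfsf11 promoter is shown as that of the largest rise, to be read beside Cd27, the largest fall. It is at chr14:78307994-78308293 on the minus strand (RefSeq, GRCm38.p6), with capitals for the same matches.
Tnfsf11: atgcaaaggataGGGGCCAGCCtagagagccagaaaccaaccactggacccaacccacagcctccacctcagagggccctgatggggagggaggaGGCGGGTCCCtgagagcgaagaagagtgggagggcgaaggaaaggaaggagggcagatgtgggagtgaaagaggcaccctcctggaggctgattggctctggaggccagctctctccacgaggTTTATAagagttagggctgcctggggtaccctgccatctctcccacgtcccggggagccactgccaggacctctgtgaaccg
It holds 2 matches to GGGNNNNNCC and 1 to TATAAA, which reads TTTATA on the strand printed.

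Receptors for BAFF and APRIL, survival factors of B cells, were led by Tnfrsf13b, which encodes TACI. Its level was 34.5, 29.6 and 29.9 FPKM in the controls and 40.3, 35.0 and 26.4 FPKM after deletion. The third Dot1l-deleted library was below all controls, and it did not pass as deposited (log2 fold change 0.091, SE 0.179, limma adjusted p = 0.753) or without that library (0.26, adjusted p = 0.0985). Tnfrsf13b passed with scaling (0.27, adjusted p = 0.0242), but not with scaling and without that library together (adjusted p = 0.0574). Tnfrsf13c, the BAFF receptor gene, was lower in each Dot1l-deleted library, with a control mean of 1.21 FPKM (SD 0.208, n = 3) and a Dot1l-deleted mean of 0.798 FPKM (SD 0.181, n = 3), but did not pass (log2 fold change -0.30, SE 0.198, limma adjusted p = 0.324). Tnfrsf17, the BCMA gene, reached at most 0.0715 FPKM. Tnfsf13b, the BAFF gene, was at 0.0206 to 0.0524 FPKM in controls and 0.143 to 0.200 FPKM after deletion. Among B cell markers, Ms4a1 and Cd22 were at 0 in all libraries, and the list summed to 1.19 to 1.67 FPKM in controls and 4.10 to 5.60 FPKM after deletion, of which Cd79b made up 1.16 to 1.59 and 3.96 to 5.49.

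Tnfrsf12a, the gene of the receptor for TWEAK, fell. It was at 4.11, 4.01 and 3.41 FPKM in the controls and 2.36, 1.99 and 1.58 FPKM after deletion. The groups did not overlap (log2 fold change -0.71, SE 0.165, limma adjusted p = 0.0123), and the call was lost without control replicate 1 (adjusted p = 0.0650) or control replicate 2 (0.0582). The row deposited as Tnfsf12, the TWEAK gene, was at 24.6, 21.4 and 23.0 FPKM in the controls and 28.1, 30.2 and 22.1 FPKM after deletion. Of the Dot1l-deleted libraries only the third lay among the controls, and it did not pass as deposited (log2 fold change 0.20, SE 0.158, limma adjusted p = 0.399). It passed with scaling (0.38, adjusted p = 0.00312) and without that library (0.33, adjusted p = 0.0227). GENCODE M21 gives this row's identifier, ENSMUSG00000018752, to Tnfsfm13, a read-through of Tnfsf12 and Tnfsf13, so its level may hold reads of both.

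**Figure D3:**
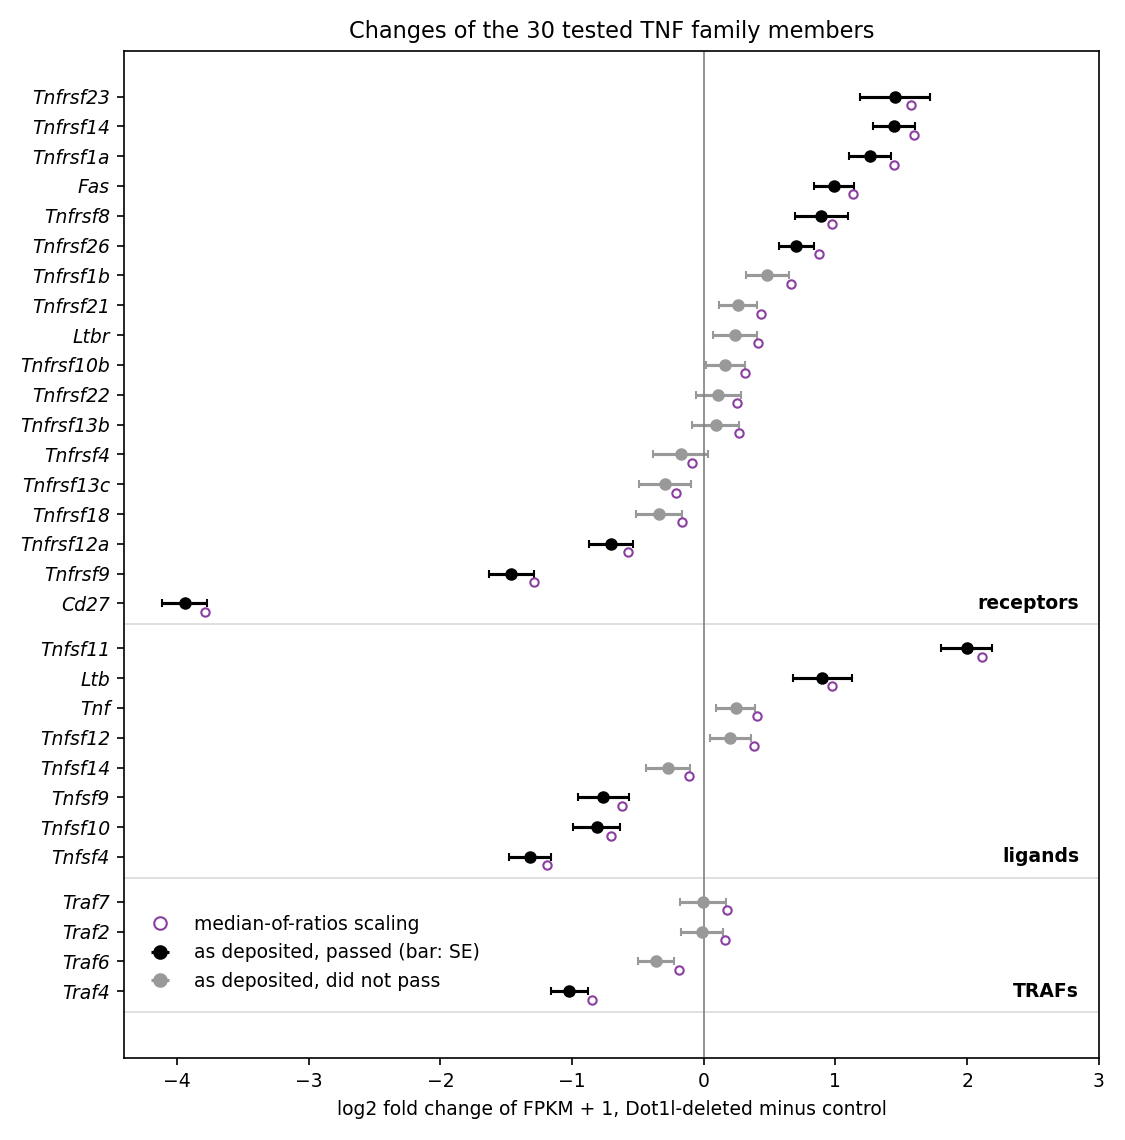
Log2 fold change of FPKM + 1, Dot1l-deleted minus control, for the 30 tested members by role. Filled circles with SE bars are values as deposited (black where the member passed) and open circles values with median-of-ratios scaling, which all lie further right and turn the sign of Traf7 and Traf2.

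TRAFs are the adaptors inside the cell, and 1 of the 4 tested passed. Traf4, an unusual TRAF known from development and cell polarity, was at 18.3, 19.9 and 19.5 FPKM in the controls and 10.1, 9.26 and 7.71 FPKM after deletion. All Dot1l-deleted libraries were below the controls, with a 2.13-fold lower mean (log2 fold change -1.02, SE 0.140, limma adjusted p = 0.000476). Traf7, a TRAF with WD40 repeats and the highest mean of all members (62.9 FPKM), was at 66.7, 60.7 and 60.6 FPKM in the controls and 67.6, 71.1 and 50.7 FPKM after deletion. The third Dot1l-deleted library was below the controls and the others above them (log2 fold change -0.0031, SE 0.174, limma adjusted p = 0.993). It passed with scaling (0.18, adjusted p = 0.0184), and did not without that library (0.15, adjusted p = 0.121). Rab26, which overlaps Traf7 on the same strand, was at 0.245 to 0.640 FPKM.

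Traf2, which couples TNF receptors to NF-kB and to survival signals, had a control mean of 18.04 FPKM (SD 0.456, n = 3) and a Dot1l-deleted mean of 18.1 FPKM (SD 3.35, n = 3). It did not pass as deposited (log2 fold change -0.015, SE 0.160, limma adjusted p = 0.959) or without the third Dot1l-deleted library (0.14, adjusted p = 0.0552), and passed with scaling (0.16, adjusted p = 0.00791). Traf6, shared with the Toll-like and interleukin 1 receptors, was at 14.9, 16.8 and 15.6 FPKM in the controls and 12.6, 13.1 and 10.6 FPKM after deletion. Its groups did not overlap, and it passed without the third Dot1l-deleted library (-0.28, adjusted p = 0.0244) but not as deposited (log2 fold change -0.36, SE 0.137, limma adjusted p = 0.0947) or with scaling (-0.19, adjusted p = 0.0829). Traf5 was below the filter at 0.379, 0.528 and 0.504 FPKM in the controls and 0.823, 0.878 and 0.599 FPKM after deletion. Each Dot1l-deleted library was above all controls. Traf1, often induced by NF-kB, was at 0.220 to 0.385 FPKM in controls and 0.119 to 0.289 FPKM after deletion.

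Members below the filter were mostly near 0. Of these 16, 12 stayed under 0.3 FPKM in every library. Cd40, the receptor of T cell help, reached at most 0.0530 FPKM and Cd40lg, the gene of its ligand, 0.171 FPKM. Tnfrsf25, a death domain receptor of T cells, reached 0.308 FPKM and its ligand gene Tnfsf15 0.0396 FPKM, and Tnfrsf19 reached 0.0612 FPKM. Among the 14 above 0 in some library, Traf5, Tnfsf8 and Tnfsf13b were higher in each Dot1l-deleted library and Lta was lower in each. Over all 8644 such genes, 14.3% were higher and 8.03% lower in this way.

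Markers of T and NK cells were measured for the same libraries. Of 9, Cd3g, Cd8a and Gzma were at 0 in all libraries, and Cd3d, Cd3e, Cd4 and Klrb1c reached at most 0.183, 0.0598, 0.151 and 0.241 FPKM. Lck was at 4.06 to 5.16 FPKM in controls and 3.33 to 4.93 FPKM after deletion. The list summed to 58.1 to 70.1 FPKM in controls and 111 to 163 FPKM after deletion, of which Nkg7 made up 53.7 to 64.8 and 107 to 157 FPKM.

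Other genes of TNF receptor signalling were taken from 8 lists. Of 90 genes, 74 were tested, and 3 rose and 11 fell, which is 4.05% and 14.9%, against 7.43% and 12.2% of all tested genes. The median log2 fold change was -0.11, against -0.16 over all tested genes. With scaling 25 rose and 20 fell (33.8% and 27% against 23% and 22.3%). Leaving out the third Dot1l-deleted library, 16 rose and 19 fell (21.6% and 25.7%, against 17.4% and 21%). Without control replicate 1, 2 or 3, those that fell numbered 5, 6 and 5. These are 6.76%, 8.11% and 6.76%, against 6.73%, 6.40% and 6.94% of all tested genes. The genes that rose as deposited were Ikbke, Vcam1 and Cxcl10.

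Of 17 death adaptors and caspases, none rose, also at an unadjusted p under 0.05 in limma, and 3 fell. Cradd, an adaptor with a death domain, fell from a mean of 4.02 to 2.23 FPKM (log2 fold change -0.64, SE 0.151, limma adjusted p = 0.0137). Diablo, an antagonist of inhibitors of apoptosis, fell from 55.6 to 35.2 FPKM (log2 fold change -0.67, SE 0.186, limma adjusted p = 0.0294). Mlkl, the effector of necroptosis, fell from 32.6 to 22.4 FPKM (log2 fold change -0.53, SE 0.152, limma adjusted p = 0.0333). With scaling 6 of the list rose and 6 fell, and without the third Dot1l-deleted library 4 rose and 5 fell. Over all tested genes 7.43% rose and 12.2% fell as deposited, 23% and 22.3% with scaling, and 17.4% and 21% without that library.

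Of 13 kinases, 1 rose and 1 fell as deposited, and 2 rose and 3 fell with scaling. Leaving out the third Dot1l-deleted library, 1 rose and 4 fell. Among all tested genes 7.43% rose and 12.2% fell as deposited, 23% and 22.3% with scaling, and 17.4% and 21% without that library. Ikbke, an IKK-related kinase gene, rose from 8.48 to 22.7 FPKM (log2 fold change 1.31, SE 0.144, limma adjusted p = 9.825e-05). Map3k5, encoding the stress kinase ASK1, fell from 10.8 to 6.97 FPKM (log2 fold change -0.58, SE 0.145, limma adjusted p = 0.0172). None of the 4 tested NF-kB subunit genes passed, while at an unadjusted p under 0.05 limma had 1 higher and 2 lower. The share of all tested genes at that unadjusted threshold was not counted, so these counts do not set the subunits apart. With scaling Rel rose (0.58, adjusted p = 0.0178) and Nfkb1 (-0.35, adjusted p = 0.000892) and Relb (-0.30, adjusted p = 0.0257) fell, and without the third Dot1l-deleted library Nfkb1 and Relb fell.

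Of 17 inhibitors and modulators of NF-kB none rose (1 did at an unadjusted p under 0.05) and Nfkbiz, a nuclear regulator of NF-kB, fell. With scaling 7 rose and 2 fell, and without the third Dot1l-deleted library 6 rose and 2 fell. Of all tested genes 7.43% rose and 12.2% fell as deposited, 23% and 22.3% with scaling, and 17.4% and 21% without that library. Nfkbiz went from a mean of 9.74 to 3.15 FPKM (log2 fold change -1.28, SE 0.313, limma adjusted p = 0.0159). Its controls were uneven, at 5.36, 15.9 and 7.97 FPKM, and the Dot1l-deleted libraries were at 3.38, 2.13 and 3.95 FPKM. The second control thus raised the control mean. The call was lost with scaling (-1.12, adjusted p = 0.0747) and without the third Dot1l-deleted library (-1.42, adjusted p = 0.0600).

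Of 3 tested genes on shedding, 2 fell and none rose, also at an unadjusted p under 0.05 in limma. As deposited, 12.2% of all tested genes fell and 7.43% rose. Adam17, whose enzyme releases TNF from the membrane, went from a mean of 62.1 to 34.6 FPKM (log2 fold change -0.84, SE 0.171, limma adjusted p = 0.00589). Adam10 went from 74.6 to 45.5 FPKM (log2 fold change -0.71, SE 0.166, limma adjusted p = 0.0122). Rhbdf2, whose product brings ADAM17 to the cell surface, had a mean of 5.52 and 7.11 FPKM and did not pass as deposited (log2 fold change 0.31, SE 0.148, limma adjusted p = 0.182). Rhbdf2 passed with scaling (0.47, adjusted p = 0.00183) and without the third Dot1l-deleted library (0.42, adjusted p = 0.0163). None of 4 TRAF-associated genes passed and none did at an unadjusted p under 0.05 in limma. With scaling 2 of them rose (23% of all tested genes). Without the third Dot1l-deleted library none rose (17.4% of all tested genes). None of 3 further genes passed, the family receptor genes Relt and Eda2r and the gene of the HVEM partner, Btla. In limma 1 of them was lower at an unadjusted p under 0.05, and Relt rose with scaling (0.25, adjusted p = 0.0121).

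Known TNF-induced genes moved both ways, with 2 of 13 higher and 4 lower. Vcam1, an adhesion molecule gene, rose from a mean of 2.14 to 30.4 FPKM (log2 fold change 3.31, SE 0.145, limma adjusted p = 3.101e-07). The chemokine gene Cxcl10 rose from 1.86 to 24.8 FPKM (log2 fold change 3.17, SE 0.149, limma adjusted p = 3.956e-07). The cytokine gene Il6 fell from 34.8 to 12.9 FPKM (log2 fold change -1.37, SE 0.157, limma adjusted p = 0.000132). Ier3, an immediate early gene, fell from 57.9 to 23.1 FPKM (log2 fold change -1.30, SE 0.152, limma adjusted p = 0.000157). The other 2 that fell were Junb and Ccl2, with log2 fold changes of -0.89 and -0.70. With scaling 5 rose and 5 fell, and without the third Dot1l-deleted library 4 rose and 4 fell. Across all tested genes 7.43% rose and 12.2% fell as deposited, 23% and 22.3% with scaling, and 17.4% and 21% without that library.

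**Figure D4:**
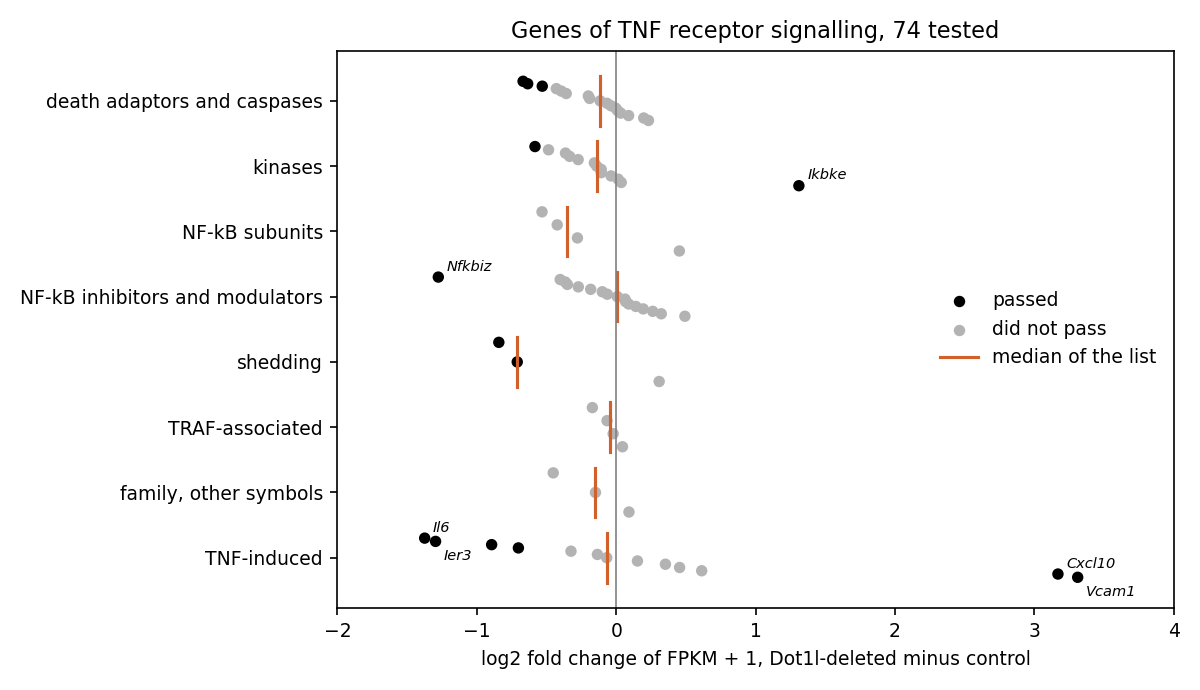
Log2 fold change of FPKM + 1, Dot1l-deleted minus control, for the 74 tested genes of TNF receptor signalling by list; points are genes (black where they passed) and vertical lines the list medians. Vcam1 and Cxcl10 lie furthest right, above 3.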

How the data were processed

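The authors deposited a table of FPKM values for each of the 6 libraries, with an Ensembl identifier and symbol per row. The submitters' processing notes name mm9, Cuffdiff, SAMtools, GSNAP and CASAVA 1.8.2 without their roles. Rows with the value 999999999 in a library, a failed estimate (378 genes), were dropped. FPKM holds no fragment counts, so depth is unknown and no counting interval is given; 17310 to 18034 genes were above 0 per library.

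From these values log2(FPKM + 1) of the 11924 genes with a mean of at least 1 FPKM was fitted with limma 3.58.1 in R 4.3.3 (moderated, mean-variance trend, two-sided, Benjamini-Hochberg over all genes, threshold 0.05). The fit was tested on simulated data with independent noise for each gene and library. That simulation held no shift of a whole library, so it cannot speak to the third Dot1l-deleted library. Log2 fold changes are Dot1l-deleted minus control on that scale, where changes of low genes come out too small; plain folds are ratios of mean FPKM. Alternatives changed the pseudocount, filter, scaling, trend or replicate block, or left out a library. Counts at an unadjusted limma p under 0.05 were made within the family and the lists only. The share of all tested genes at that threshold was not counted, so those counts have no background beside them.

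The family, the 8 pathway lists (90 genes) and the 10 marker lists (70 genes) were chosen with earlier results of these data known. Within the family, the members were taken by symbol alone. All 160 list genes were matched, 5 of them by identifier. Every member was named, with per-library values for those that passed and the 5 highest; of each pathway list the rule named up to 4 genes that passed. Per-library values of other members, and the neighbours and further list genes named (Junb and Ccl2 among them), were chosen after their values were seen. Gene order and overlaps come from GENCODE M21 and promoters from RefSeq (36 members matched).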

Additional observations from a re-analysis of the deposited data

How the results depend on the processing

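Of the 15 members called, 13 kept their direction and call under all 14 alternatives, and the exceptions, Tnfsf9 and Tnfrsf12a, kept their direction. Of the 15 not called, 5 stayed so under all 14 (Tnfrsf13c, Tnfrsf18, Tnfrsf22, Tnfrsf4 and Tnfsf14). Dot1l had log2 fold changes of -1.46 to -1.24 when a library was left out. With median-of-ratios scaling, quantile normalization, and that scaling without the third deleted library, members higher numbered 17, 17 and 15, all genes higher 2740, 2412 and 2331, all genes lower 2661, 3196 and 2236, pathway genes higher 25, 22 and 19, and pathway genes lower 20, 22 and 17. With no filter 1342 genes were higher. When 1 library was left out in turn, members higher numbered 8 to 14 and lower 5 to 7, all genes higher 661 to 2069 and lower 763 to 2504, and pathway genes higher 3 to 16 and lower 5 to 19; the highest counts came without the third Dot1l-deleted library, except for members lower. The cause was not tested.

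Values near 0 changed sign. Traf7 was at 0.18, 0.15 and 0.17 and Traf2 at 0.16, 0.15 and 0.17 under the same 3 scalings, and with 1 library left out Traf7 ran from -0.10 to 0.15, Traf2 from -0.10 to 0.14, Tnfrsf13b from -0.041 to 0.26 and Tnfrsf22 from -0.042 to 0.21.

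Same-numbered samples did not deviate together (correlations -0.030, -0.038 and 0.013), so the numbers were not read as pairs. With the replicate block 9 members rose and 7 fell, Tnfrsf1b being added (adjusted p = 0.0498), 1152 genes rose and 1801 fell, and 5 pathway genes rose and 12 fell. Fragment counts are unknown, so values under 1 FPKM could not be set against counting error.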

Other observations

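The promoter table held 40 windows for 36 members. GGGNNNNNCC was found in 26 of the 40, against 50.8% of all promoters, and TATAAA in 6, against 13.6%. The windows of Ltb, Tnfrsf8, Tnfsf14 and Traf2 held 4 matches to GGGNNNNNCC each. The median number of CG pairs per window was 9 in members that rose, 6.5 in those that fell and 12.5 in tested members that did not pass, against 7 over all promoters. These counts describe the windows and were not tested.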
